A study of Mus musculus with 6 samples.

Results

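Synapses pass signals between neurons by releasing transmitter from vesicles on the presynaptic side and binding it with receptors held in place by scaffold proteins on the postsynaptic side. SNARE proteins fuse the vesicle with the membrane, synaptotagmins and complexins set when fusion occurs, and AMPA, NMDA, kainate and GABA receptors convert the transmitter into current. In the mouse brain most synapses form after birth, so an embryonic brain shows this machinery while neurons are still growing axons. The genes described here are 35 presynaptic and postsynaptic genes, chosen by name from textbook roles with earlier results of these data known. Their members on the array are all probe sets that the platform annotation gives to exactly 1 gene, that gene being in the list. This gave 88 of 45037 probe sets, covering 34 of the 35 genes and of the 18193 genes named in this way.

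Whole brains were taken from Foxf2 mutant (n = 3) and wild-type (n = 3) mouse embryos at E18.5, shortly before birth, on a C57/bl6 background, each on its own Affymetrix array. Foxf2 is a forkhead transcription factor, active in brain pericytes, and the labels do not describe the mutation itself. The sample titles name an embryo in the singular but do not state whether RNA of several was pooled. The p-values therefore reflect only how far these 6 samples spread, which may be technical. In bulk tissue, fewer cells of a type and less RNA per cell cannot be told apart. Values are the authors' MAS5 intensities on a linear scale. Differences are mutant minus wild type on the scale log2(intensity + 16), with limma adjusted p-values over the 27022 probe sets bright enough to be tested.

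The brighter Foxf2 probe set read 8.06, 3.31 and 7.57 in mutant brains, against 18.6, 24.4 and 13.8 in wild-type brains, too dim to be tested. Every mutant value lay below every wild-type value (p = 0.1 by exact permutation, two-sided, the lowest value 6 arrays can give). A probe set bright enough to be tested cannot bear out the label of brain, as some muscle and pituitary markers were tested too. All 10 neuronal markers had a tested probe set. Their summed intensity ran from 18978 to 19270 in mutant and from 18477 to 19501 in wild-type brains, and 0 of the 10 passed the threshold, with 4 above 0, 6 below 0 and a median log2 difference of -0.01. Genes of skeletal muscle and pituitary were high on 1 or 2 arrays. The skeletal muscle actin gene Acta1 read 741 in mutant array 3, with no other array above 77.0. The growth hormone gene Gh read 203 in mutant array 3 and 1592 in wild-type array 3, with no other array above 23.8. The summed intensity of 5 endothelial markers was 494 to 570 in mutant and 669 to 698 in wild-type brains, with 3 markers below 0, 2 above 0 and 0 past the threshold. The 7 radial glia and astrocyte markers summed to 9400 to 10179 in mutant and 8359 to 9263 in wild-type brains, with 6 above 0. Of these 7, Vim passed the threshold by limma (log2 difference 0.45, adjusted p = 0.0435), on a probe set whose suffix _x_at marks possible cross-hybridisation. The 3'/5' ratio of the Gapdh control, a measure of RNA quality, was 0.686 ± 0.0036 in mutant and 0.726 ± 0.021 in wild-type brains (SD, n = 3 each, exact permutation p = 0.1). For the beta-actin control the ratio went the other way, 1.32 ± 0.011 in mutant and 1.28 ± 0.036 in wild-type brains (exact permutation p = 0.2). The part of these other cells and of RNA quality in the values below was not tested. Leaving out any 1 array left the count of synapse probe sets past the threshold at 0. That count was 0 with all 6 arrays too, so this cannot show their part.

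No synapse gene on the list passed the threshold in the fit without pairing of arrays. Of the 88 member probe sets, 77 were bright enough to be tested, in 32 genes, and all 77 averaged above the filter intensity in both groups. By limma, 0 of the 77 had an adjusted p under 0.05, where 0.389% of all tested probe sets did, 0.366% higher and 0.0222% lower in mutant brains. At an unadjusted p under 0.05 there were 9 member probe sets, or 11.7%, against 13.6% of all tested. Of the 9, 6 read higher in mutant brains (7.79% of members, 7.76% of all tested) and 3 read lower (3.9% of members, 5.79% of all tested). The count of 9 was 14 without mutant array 1 or without mutant array 2, and 5 without wild-type array 1. Groups did not overlap for 10 member probe sets. In 6 of them the mutant arrays were higher, a share of 7.79% against 10.9% of all tested, and in 4 they were lower, a share of 5.19% against 9.38%. These shares lie near or below those of the array as a whole. The median log2 difference was -0.03 for members and -0.01 for all tested probe sets.

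The 95% intervals were taken for each probe set alone, on the scale with the offset, and were not adjusted for the number tested. They do not bound the true change of dim genes, which this scale makes smaller. For 76 of the 77 tested probe sets the interval lay within 1 log2 unit of 0, and for 56 it lay within 0.5. The exception to the wider bound was 1 probe set of Syt4. Adjusted p-values of the members ran from 0.106 to 0.997.

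**Figure D1:**
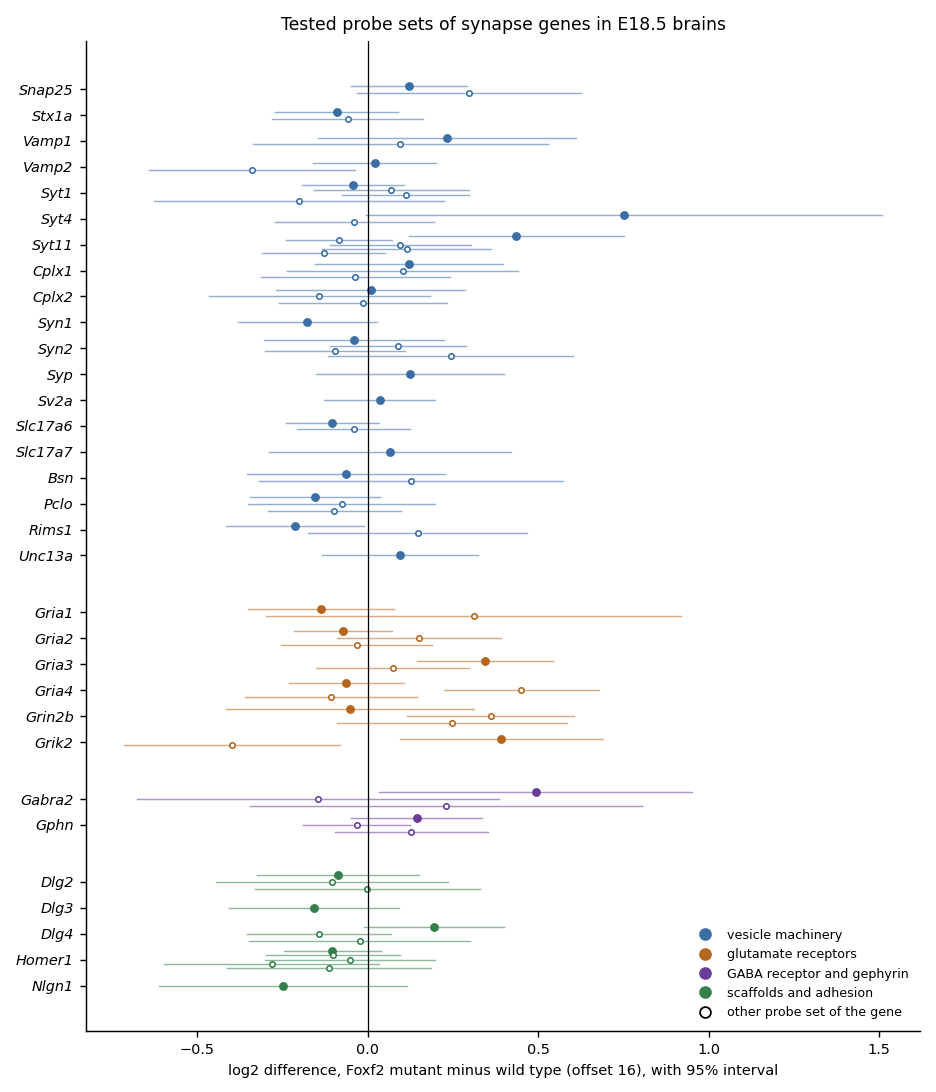
Log2 difference between Foxf2 mutant and wild-type brains (x axis, offset 16) for each of the 77 tested probe sets, by gene; filled points are the brightest probe set of a gene, open points its others, and lines are 95% intervals from limma. Most intervals cross 0, and 0 of the 77 probe sets passed the adjusted threshold.

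By kind of gene, the medians lay between -0.10 and 0.14. Among 19 vesicle machinery genes, 43 probe sets were tested, 22 above 0 and 21 below 0, with a median log2 difference of 0.01. Of the 8 glutamate receptor genes, 6 had tested probe sets, 15 in all, with 8 above 0, 7 below 0 and a median of 0.07. GABA receptor and gephyrin probe sets numbered 6, from only 2 genes, Gabra2 and Gphn, with 4 above 0 and a median of 0.14. Of 13 tested probe sets of scaffold and adhesion genes, 12 lay below 0 and 1 above, with a median of -0.10. Among all tested probe sets 13892 of 27022 lay below 0. The differences between the kinds were not tested, and several probe sets share a gene. With 1 probe set per gene the glutamate receptor median turned to -0.06, and the GABA receptor and gephyrin median rose to 0.32. With no filter the GABA receptor and gephyrin median was 0.07. The vesicle machinery median ran from -0.07 to 0.07 when 1 array was left out and was -0.05 with each array centred on its median.

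**Figure D2:**
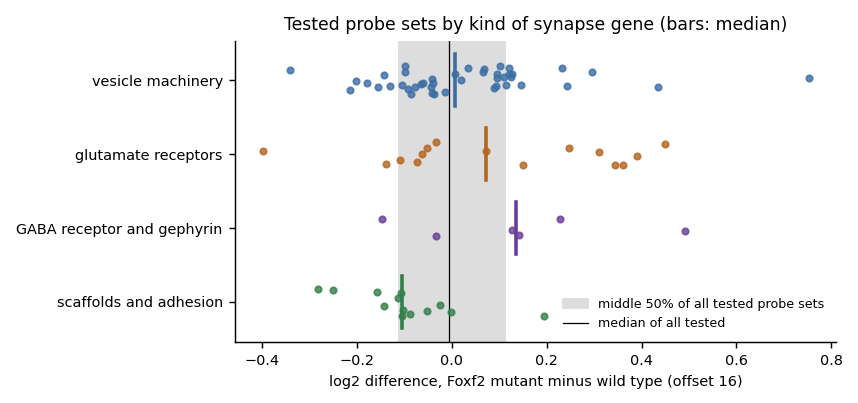
Log2 difference between Foxf2 mutant and wild-type brains (x axis, offset 16) of each tested probe set, in rows for the 4 kinds of synapse gene, with coloured bars at the medians; the grey band spans the middle 50% of all 27022 tested probe sets (-0.11 to 0.11). The 4 medians run from -0.10 to 0.14.

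The core fusion genes lay near 0 on their brightest probe sets, apart from Vamp1. Snap25, the SNARE protein of the presynaptic membrane, read 1458, 1762 and 1692 in mutant brains, against 1484, 1514 and 1499 in wild-type brains. The groups overlapped, and the log2 difference was 0.12 with a 95% interval of -0.05 to 0.29. On a much dimmer probe set Snap25 had 0.30, also with overlap (adjusted p = 0.417). Stx1a, its syntaxin partner, had -0.09 and -0.06 on its probe sets. Vamp2, the vesicle SNARE of most brain synapses, had 0.02 on its brighter probe set (95% interval -0.16 to 0.20). Its other probe set read 139, 138 and 111 in mutant brains, against 182, 189 and 135 in wild-type brains, at a log2 difference of -0.34 with adjusted p = 0.314. Only the lowest wild-type value fell among the mutant values. This probe set was singled out after its values were seen. Vamp1, a related vesicle SNARE, was dimmer and had 0.23 and 0.09.

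Among the synaptotagmins, Syt1, the sensor for fast release, had 4 probe sets between -0.20 and 0.11. Syt4, a synaptotagmin found on dense-core vesicles, read 454, 912 and 977 in mutant brains, against 259, 542 and 574 in wild-type brains. Its log2 difference of 0.75 was the highest of any member, with a 95% interval from just below 0 to 1.51 and an adjusted p of 0.373. The lowest mutant value lay below 2 of the wild-type values, and array 1 was the lowest of both groups. The size depended on single arrays and ran from 0.40 without wild-type array 1 to 1.10 without mutant array 1. The labels do not pair arrays by number. A fit that blocked on array number took this probe set and the brightest of Syt11 past the threshold. The other Syt4 probe set read 529, 601 and 550 in mutant brains, against 485, 626 and 626 in wild-type brains, a difference of -0.04.

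Syt11, a synaptotagmin that does not bind calcium, was measured by 5 probe sets. The brightest read 802, 1010 and 1005 in mutant brains, against 550, 800 and 735 in wild-type brains. All mutant values lay above all wild-type values, by a log2 difference of 0.43 ± 0.14 (SE; adjusted p = 0.231). Without wild-type array 1 this was 0.28. Its suffix is _x_at, which Affymetrix gives to probe sets that may cross-hybridise. The other 4 ran from -0.13 to 0.11. Complexins, which clamp and then promote fusion, lay near 0, Cplx1 between -0.04 and 0.12 and Cplx2 between -0.14 and 0.01.

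Tested probe sets of vesicle membrane genes overlapped between the groups. Syn1, a synapsin that ties vesicles together in the terminal, read 327, 390 and 364 in mutant brains, against 398, 452 and 380 in wild-type brains (log2 difference -0.18, adjusted p = 0.43). A single mutant value lay above the lowest wild-type value. The related Syn2 had 4 tested probe sets between -0.10 and 0.24, and its other 2 read below 10 on every array. Synaptophysin, Syp, had 0.12, and Sv2a, a vesicle glycoprotein, had 0.03. A second Syp probe set was too dim to be tested, with no array above 7.96.

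Slc17a6 and Slc17a7 encode the transporters that load glutamate into vesicles, and Slc17a6 is known as the form used early in much of the brain. Slc17a6 read 972, 1049 and 1035 in mutant brains, against 1115, 1120 and 1051 in wild-type brains. The groups did not overlap, yet the log2 difference was only -0.10, with a 95% interval of -0.24 to 0.03 and an adjusted p of 0.492. The other Slc17a6 probe set had -0.04. The single Slc17a7 probe set read 22.7 to 38.5 over all 6 arrays and had a difference of 0.07.

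Active zone genes organise the release site. Rims1, which links vesicles to calcium channels, read 281, 326 and 288 in mutant brains, against 367, 368 and 312 in wild-type brains. The highest mutant value lay above the lowest wild-type value, and the log2 difference was -0.21 (adjusted p = 0.345), while the other Rims1 probe set had 0.15. Pclo, a giant scaffold of the active zone, had 3 probe sets below 0, from -0.16 to -0.08. Its scaffold partner Bsn had -0.06 and 0.13 on tested probe sets. Unc13a, which primes vesicles for fusion, had 0.09.

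AMPA receptor subunits carry most fast excitatory current. Gria3 read 198, 233 and 205 in mutant brains, against 153, 165 and 173 in wild-type brains. All mutant values lay above all wild-type values, with a log2 difference of 0.34 ± 0.09 (SE) and an adjusted p of 0.149. Its other probe set had 0.07. A Gria4 probe set, singled out after its values were seen, had the lowest adjusted p of all members, 0.106. It read 183, 221 and 226 in mutant brains, against 139, 162 and 146 in wild-type brains, a log2 difference of 0.45 ± 0.10 (SE) without overlap. The brightest Gria4 probe set, in contrast, had -0.06 and the third -0.11. Gria2, the subunit that blocks calcium entry, had -0.07, 0.15 and -0.03, and Gria1 had -0.14 and 0.31.

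NMDA receptors were covered unevenly. Grin1, the subunit that every NMDA receptor holds, had no probe set with it as the single gene. Grin2a, known for its rise after birth, read 0.371 to 7.12 over the 6 arrays on a single probe set, too dim to be tested. Grin2b, the subunit of embryonic receptors, read 98.6, 113 and 78.7 in mutant brains, against 85.4, 129 and 90.2 in wild-type brains. The groups overlapped fully, and the log2 difference of -0.05 turned to 0.07 without mutant array 3 and to 0.11 without wild-type array 2. A second Grin2b probe set, singled out after its values were seen, read 87.2, 106 and 97.9 in mutant brains, against 78.2, 73.6 and 64.7 in wild-type brains. There the groups did not overlap (log2 difference 0.36, adjusted p = 0.205). Another tested Grin2b probe set, much dimmer, had 0.25 with overlap between the groups (adjusted p = 0.51). The remaining Grin2b probe set was too dim to be tested, though its mutant values all lay above its wild-type values.

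**Figure D3:**
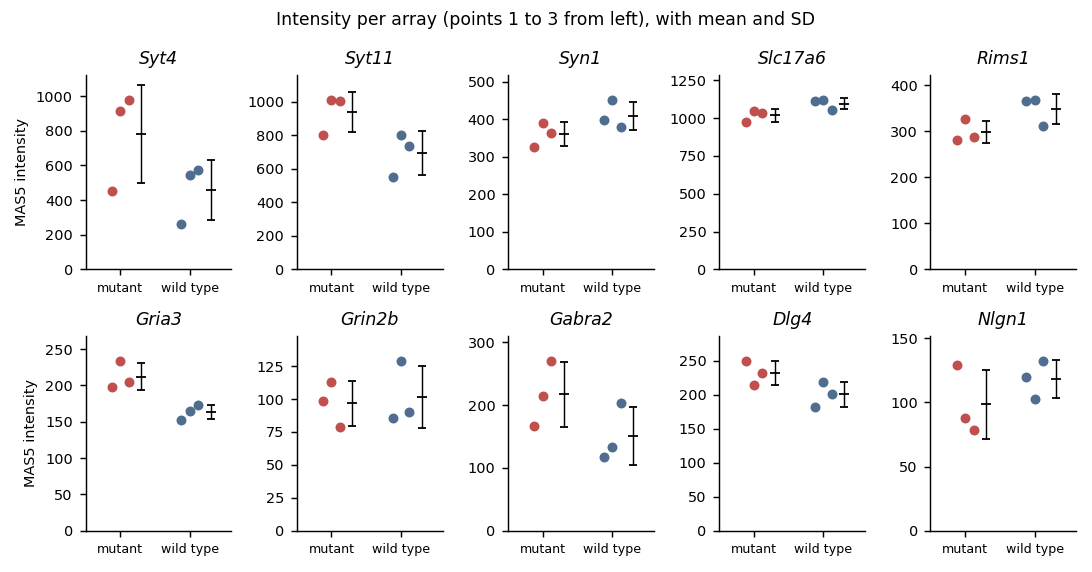
MAS5 intensity (y axis, from 0) on each of the 3 mutant and 3 wild-type arrays for the brightest probe set of 10 named genes (Grik2 is in the plot of probe set pairs), with the mean and SD as a bar beside the points. Syt11, Gria3 and Slc17a6 show no overlap between the groups, Slc17a6 with lower mutant values.

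Grik2, a kainate receptor subunit, was the only member whose probe sets differed from each other past the threshold. Its brightest probe set read 126, 150 and 107 in mutant brains, against 81.4, 92.5 and 106 in wild-type brains (log2 difference 0.39, adjusted p = 0.247). The other read 75.5, 83.6 and 52.8 in mutant brains, against 97.5, 100 and 92.6 in wild-type brains (-0.40, adjusted p = 0.267). The first was higher and the second lower in all 3 mutant brains, in both cases without overlap. The within-array difference between them was -0.74 in mutant and 0.05 in wild-type brains, an unequal difference of -0.79 with a 95% interval of -1.07 to -0.50. By limma over 10647 such pairs from all genes its adjusted p was 0.0447, where 0.507% of all pairs passed. The call was lost without any 1 of the 6 arrays, with adjusted p from 0.0628 to 0.144, while the sign held.

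Probe sets of a gene read different stretches of its transcripts, and an unequal difference says only that they did not move together. Of 45 member pairs, 1 passed and 12 (26.7%) had an unadjusted p under 0.05, against 18% of all pairs at that level. The 12 are not separate observations, since some share the brightest Syt11 probe set, whose suffix is _x_at. The brightest and the other probe set had opposite signs in 23 of the 45 pairs, or 51.1%, and in 45.9% of all pairs. Gabra2 came next, with an unequal difference of -0.64 (adjusted p = 0.0568). Next in order were Syt11 with -0.56 (adjusted p = 0.111) and Gria4 with 0.51 (adjusted p = 0.111), none of the 3 past the threshold.

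**Figure D4:**
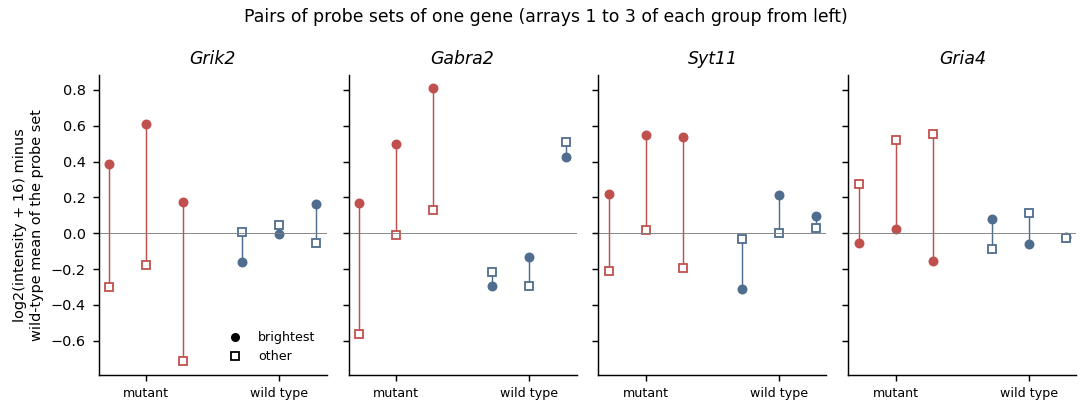
Values of 2 probe sets of Grik2, Gabra2, Syt11 and Gria4 on each array as log2(intensity + 16) minus the wild-type mean of that probe set (y axis); circles are the brightest probe set, squares the other, and a line joins the values of 1 array. In Grik2 the circles lie above and the squares below 0 on all 3 mutant arrays.

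To show where these 2 genes begin, the promoter windows of Grik2 and Syt11 are printed from RefSeq on GRCm38.p6, 250 bases before to 50 after the start site, both on the minus strand. Grik2, whose window holds no motif, was chosen as the gene with the called pair. Syt11 was the next gene in order of pairs whose window holds a motif. Gabra2, with none, was passed over. Foxf2 is a forkhead factor, so the windows were searched on both strands for the forkhead core GTAAACA and for its shorter part TAAACA, which every GTAAACA contains. Capitals mark TAAACA on either strand. The array's build is not given in the sources used here, and the probe sets were not placed on the genome.
Grik2, chr10:49788705-49789004: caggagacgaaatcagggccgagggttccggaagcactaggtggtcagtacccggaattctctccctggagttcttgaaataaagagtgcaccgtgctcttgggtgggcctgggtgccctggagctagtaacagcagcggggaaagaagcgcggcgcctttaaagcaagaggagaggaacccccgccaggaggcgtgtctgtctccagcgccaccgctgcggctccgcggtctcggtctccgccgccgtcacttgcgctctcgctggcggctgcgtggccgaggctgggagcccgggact
Syt11, chr3:88772550-88772849: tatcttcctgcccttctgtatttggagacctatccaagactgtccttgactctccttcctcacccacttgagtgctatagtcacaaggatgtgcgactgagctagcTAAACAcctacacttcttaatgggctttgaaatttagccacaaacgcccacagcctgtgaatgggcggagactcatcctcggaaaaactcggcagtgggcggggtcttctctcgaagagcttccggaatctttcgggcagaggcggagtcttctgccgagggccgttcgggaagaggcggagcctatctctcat
Of the 35 genes, 27 had a window in the table. GTAAACA was in 0 of the 27, against 4.05% of all 27025 genes, and TAAACA in 4 (Syt11, Slc17a6, Grin1 and Nlgn1), against 15.1% of all genes. A match in this window is a description of its letters only.

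On the inhibitory side, Gabra2 encodes a GABA receptor subunit common in the embryonic forebrain. It read 167, 214 and 270 in mutant brains, against 117, 133 and 203 in wild-type brains. The groups overlapped through the highest wild-type value, and the log2 difference was 0.49 (adjusted p = 0.335). Its other tested probe sets had -0.15 and 0.23. Gephyrin, Gphn, which anchors these receptors, had 0.14, -0.03 and 0.13 on its probe sets. The last read 67.9, 71.4 and 67.0 in mutant brains, against 58.0, 61.7 and 65.1 in wild-type brains, without overlap (adjusted p = 0.613).

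Scaffolds of excitatory synapses lay slightly below 0 on most probe sets. Dlg4, which encodes PSD-95, read 249, 214 and 231 in mutant brains, against 182, 219 and 201 in wild-type brains, so the log2 difference was 0.19 (adjusted p = 0.394). It was the 1 scaffold probe set above 0, with overlap between groups, and the other Dlg4 probe sets had -0.14, without overlap, and -0.02. Homer1, which links glutamate receptors to calcium stores, had 5 tested probe sets, all below 0, from -0.28 to -0.05. The brightest read 503.6, 520.8 and 550.0 in mutant brains, against 551, 583 and 561 in wild-type brains. These groups did not overlap, with a log2 difference of -0.10 and a 95% interval of -0.25 to 0.04. The related scaffolds Dlg2 and Dlg3 had 3 probe sets from -0.11 to just below 0 and 1 at -0.16. Shank1, a scaffold known from mature spines, read 0.897 to 14.3 over the 6 arrays and was too dim to be tested.

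Nlgn1 encodes a neuroligin, the postsynaptic partner of neurexins. It read 129, 88.1 and 78.1 in mutant brains, against 120, 103 and 132 in wild-type brains. Mutant array 1 lay among the wild-type values and the other 2 mutant arrays below them. The log2 difference of -0.25 (adjusted p = 0.538) was -0.43 without mutant array 1 and -0.12 without mutant array 3.

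Beyond the 35 genes, a list of 94 other synapse genes had 163 tested probe sets in 78 genes. None passed the threshold by limma, in either direction, and 26 (16%) had an unadjusted p under 0.05, against 13.6% of all tested. Of these, 13 were higher and 13 lower in mutant brains, where all tested probe sets had 7.76% higher and 5.79% lower. The median log2 difference was -0.02, and the groups did not overlap for 40 (24.5%), against 20.2% of all tested probe sets. Among 24 GABA and glycine receptor probe sets, 8 had an unadjusted p under 0.05, against the 13.6% of all tested. Mutant values were higher in 5 of the 8 and lower in 3, and some of the 8 share a gene. On the brightest probe sets of the 10 tested genes of this role, 4 lay above 0 and 6 below, with a median of -0.08. Gabbr1, a GABA receptor gene, was among the lower, at -0.23 on its brightest probe set (adjusted p = 0.18). Glrb, the beta subunit of the glycine receptor, read 126, 153 and 156 in mutant brains, against 61.5, 82.0 and 91.4 in wild-type brains on an _x_at probe set. This log2 difference of 0.78 was the closest of the list to the threshold (adjusted p = 0.0597), and the brighter Glrb probe set had 0.37 (adjusted p = 0.268). Glra2, the embryonic alpha subunit of that receptor, averaged 528 ± 36.3 in mutant brains and 405 ± 20.0 in wild-type brains (SD, n = 3 each; log2 difference 0.37, adjusted p = 0.0837).

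The other roles of that list had fewer such probe sets. Grik3, a kainate receptor subunit, had a log2 difference of 0.56 and Grik5 of -0.20. Among release genes, Syn3 and the vesicle protein gene Synpr both had about 0.33 to 0.34. Slc18a2, the monoamine transporter of vesicles, had -0.23 and the GABA transporter Slc32a1 -0.05. The calcium channel genes of the active zone gave 0.59 on a dim Cacna1a probe set and -0.38 on an _x_at probe set of Cacna1b. Other tested Cacna1a probe sets, also dim, had -0.13 and 0.10, and the brightest Cacna1b probe set had -0.32. Dlgap4 and Dlg1, both scaffolds, had -0.30 each, but -0.15 and -0.20 on their brightest probe sets. Of 19 tested scaffold probe sets of that list, 9 lay above 0 and 10 below, with a median of -0.01. The adhesion gene Lrrtm3 had 0.44, while its other 3 probe sets lay between -0.05 and -0.02. Nlgn2, another neuroligin gene, had 0.51 on a dim probe set and -0.16 on its brightest. None of these passed the threshold.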

How the data were processed

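Total RNA from whole E18.5 brains was labelled with biotin by the Affymetrix procedure, per the labels' protocols. The deposited values are intensities that the authors made with MAS5, per the submitters' processing notes. After trimming 2% at either end, array means in the deposited table came to 99.5 to 99.6, so the authors' scaling to a common level was kept. This hides any change in total RNA, and the number of arrays limits precision. The genome build behind the array is not given in the sources used here.

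Of 45101 probe sets, 64 controls were left out. Of the other 45037, 34945 had 1 gene in the platform annotation, 932 several and 9160 none listed. All 88 member probe sets matched a RefSeq gene with 0 symbols updated. Values were fitted as log2(value + 16), mutant minus wild type, with limma 3.58.1 in R 4.3.3 (lmFit, eBayes with trend, two-sided). Dim genes therefore show smaller differences than their true change. The Benjamini-Hochberg adjustment was made over probe sets whose mean log2 value reached the 40th percentile (intensity 13.2), and calls needed an adjusted p below 0.05. For each gene with several tested probe sets, the within-array log2 difference between each other and the brightest probe set was fitted in the same way over all 10647 pairs.

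The members and lists were chosen with earlier results of these data known. Taking the brightest probe set of each gene, values per array are given in each of 10 roles for the largest absolute difference and the smallest p, and also for called probe sets and for both probe sets of a called pair. In the list of other synapse genes the 2 with the smallest p per role are named. Snap25, Homer1 and probe sets described as singled out, as well as other log2 differences, were added after values were seen. Both fits were tested on simulated data with known differences. The fit of probe sets recovered 20% of those changed by 0.5 log2 units and 79.2% of those changed by 1. The fit of pairs recovered 59.4% of pairs unequal by 1 log2 unit. Alternatives covered the offset, filter, scaling, variance trend, array weights, replicate block, each array left out and 1 probe set per gene.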

Additional observations from a re-analysis of the deposited data

Results flagged for a closer look

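Control probe sets took no part in the comparison. In 5 control families the lowest mutant array was still brighter than the highest wild-type array, and the log2 differences were 0.27 for 18S ribosomal RNA, 0.33 for the B2 repeat, 0.10 for bioC, 0.13 for bioD and 0.14 for cre. Each had p = 0.1 by exact permutation (two-sided), which is the lowest value 6 arrays can give. The bioB spike and the B1 repeat overlapped between groups. Their part in the synapse gene values was not tested.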

How the results depend on the processing

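The count of synapse probe sets past the threshold stayed at 0 higher and 0 lower under 15 of the 16 alternatives. With the replicate block it was 2 higher, Syt4 (adjusted p = 0.00756) and Syt11 (adjusted p = 0.0353). Deviations from the group means correlated at 0.19, 0.13 and 0.09 between same-numbered arrays. Each array correlated best with its own number, but the labels do not pair the arrays and 1 correlation was under 0.1. Over all tested probe sets the count of 105 became 181 with offset 1, 64 with offset 64, 52 with no filter, 167 with the 60th percentile filter, 56 with median centring, 0 without the variance trend, 220 with the replicate block and 12 with 1 probe set per gene. Leaving out 1 array gave 0 to 34. The single unequal pair, Grik2, became 0 member pairs with offset 1, with no filter and with the replicate block, 3 with offset 64 and 2 with the 60th percentile filter, and 0 without any 1 array. Over all pairs the count of 54 became 325 with offset 64, 219 with the 60th percentile filter, and 0 with offset 1, with no filter, with the replicate block and without any 1 array; pairs were not run with 1 probe set per gene. Of 236 recomputed log2 differences of named probe sets, 232 kept their sign and side of the threshold, and the brightest Grin2b probe set turned from -0.05 to 0.07 and 0.11 for 1 array left out each, within a range of -0.15 to 0.11. The causes were not tested. Foxf2 stayed lower under each alternative. Dim probe sets, 11 of the 88, allow no statement on Grin2a or Shank1.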
